A study of Mus musculus with 6 samples.

Results

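The genes described here are the placental and decidual members of the mouse prolactin family, measured in embryonic hearts. The set holds 10 symbols, and a gene was taken where an array row listed its symbol and no other. This gave values for 7 of 10 genes (Prl4a1, Prl3d3, Prl7a1, Prl8a2, Prl5a1, Prl2a1 and Prl7d1), out of 22180 genes measured in all, while Prl3d1, Prl3d2 and Prl3b1 were not analysed here. The members were chosen by their measured difference between the groups described below and by their family, so their values are a description, without a test, and support nothing. Hearts of C57BL/6 embryos at embryonic day 9.5 were pooled and their RNA was hybridised to Affymetrix arrays, 3 pools per group. All embryos were homozygous for a floxed allele of Hdac3, a histone deacetylase gene. The embryos called Hdac3-Isl1KO also carried Isl1-Cre (genotype Hdac3-flox/flox; Isl1-Cre), which is active in cells that express Isl1, including the second heart field. The Hdac3-flox/flox group had no Cre, so the Cre allele itself and the loss of Hdac3 cannot be told apart. The sources used here give neither the number of hearts in a pool nor the litters, so errors and p-values reflect only how far these pools differed, which may be technical.

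Prolactin is a pituitary hormone whose gene, Prl, has many relatives beside it in the rodent genome. These relatives are made mainly by trophoblast cells of the placenta and by the decidua, the altered uterine lining of pregnancy. The placental lactogens of the Prl3 subfamily (Prl3d1, Prl3d2, Prl3d3 and Prl3b1) act through the prolactin receptor, which signals by the kinase Jak2 and the transcription factor Stat5. Most other relatives are called prolactin-like proteins, and several of them act on blood vessels, blood cells or immune cells rather than on that receptor.

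All prolactin family genes lie on chromosome 13, and the measured members are spread through the row of relatives rather than side by side. In the RefSeq gene order (GRCm38.p6) Prl3d3 follows Prl3d1 and Prl3d2, Prl8a2 lies between Prl6a1 and Prl2b1, Prl7a1 lies between Prl7b1 and Prl7a2, and Prl4a1 and Prl5a1 are neighbours at the end of the row. RefSeq upstream sequences of 250 bases before the gene start were available for 9 of the 10 named members, all but Prl8a2, and for 13 of 17 other listed family symbols. The sequences of the 3 members that were higher past the threshold in Hdac3-Isl1KO are shown so that the starts of genes that moved together can be set side by side. Prl7d1 and its relative Prl2c5 were both dim and did not pass the threshold. Their sequences follow because they are nearly the same while the values of the genes were not. Each is printed 5′ to 3′ on the strand of the gene, and capitals mark matches to GATA sites (the letters GATA after A or T and before A or G), to the AP-1 site TGANTCA, and to the stretch TATATANGAGGTNGA, all searched on both strands. None of the marked matches overlap.
(GRCm38.p6, chr13:28015962-28016211, plus strand): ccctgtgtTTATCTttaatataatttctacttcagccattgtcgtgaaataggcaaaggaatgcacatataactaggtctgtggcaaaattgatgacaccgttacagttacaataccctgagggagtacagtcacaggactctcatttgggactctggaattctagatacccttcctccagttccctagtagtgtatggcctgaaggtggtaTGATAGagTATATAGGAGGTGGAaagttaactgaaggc
(GRCm38.p6, chr13:27156544-27156793, plus strand): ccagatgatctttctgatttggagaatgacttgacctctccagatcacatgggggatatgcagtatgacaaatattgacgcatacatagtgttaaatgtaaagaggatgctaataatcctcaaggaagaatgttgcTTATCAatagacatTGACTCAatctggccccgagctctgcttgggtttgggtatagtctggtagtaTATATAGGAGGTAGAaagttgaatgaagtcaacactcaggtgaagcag
(GRCm38.p6, chr13:27642494-27642743, minus strand): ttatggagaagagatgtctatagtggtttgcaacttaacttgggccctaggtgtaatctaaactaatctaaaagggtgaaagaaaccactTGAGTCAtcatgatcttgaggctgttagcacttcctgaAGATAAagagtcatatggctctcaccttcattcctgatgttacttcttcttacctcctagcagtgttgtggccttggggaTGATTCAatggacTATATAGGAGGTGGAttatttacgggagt
(GRCm38.p6, chr13:27716737-27716986, minus strand): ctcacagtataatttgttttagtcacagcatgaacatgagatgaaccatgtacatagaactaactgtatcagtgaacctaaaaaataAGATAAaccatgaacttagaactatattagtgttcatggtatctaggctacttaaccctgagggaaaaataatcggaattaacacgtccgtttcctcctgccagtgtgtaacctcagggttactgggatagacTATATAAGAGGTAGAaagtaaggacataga
(GRCm38.p6, chr13:13182466-13182715, plus strand): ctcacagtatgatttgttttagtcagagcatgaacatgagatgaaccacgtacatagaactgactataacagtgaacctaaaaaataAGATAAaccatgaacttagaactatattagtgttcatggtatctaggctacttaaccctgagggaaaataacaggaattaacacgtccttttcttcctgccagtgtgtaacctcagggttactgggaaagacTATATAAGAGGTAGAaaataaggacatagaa

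The stretch TATATANGAGGTNGA holds the TATA box and begins 30 bases before the start in Prl4a1, 48 in Prl3d3 and 29 in Prl7a1. It is made of the letters shared by Prl4a1, Prl3d3, Prl7a1 and Prl7d1 at that place, set after these sequences had been read, so its presence in them is no finding. It stood in 10 of 22 family genes with an upstream sequence, 6 of them members. Over all genes, 11 of 32851 upstream sequences of the same length held it (0.0335%), and all 11 belonged to the prolactin family. Among the motifs searched, a GATA match was found in 6 of the 9 members and in 26.5% of all upstream sequences. Of the 13 family genes outside the set, 9 had a GATA match. An AP-1 match was found in 4 of the 9 members, in 3 of those 13 genes and in 6.75% of all upstream sequences. The members with an AP-1 match were Prl7a1 and the close copies Prl3d1, Prl3d2 and Prl3d3, which are not separate sequences for such a count. These copies are also among the 6 members with a GATA match. In Prl3d3 the GATA match began 114 bases and the AP-1 match 100 bases before the start, and Prl7a1 had 2 AP-1 matches, at 160 and 42 bases. Prl4a1 had GATA matches at 242 and 38 bases. E-boxes (CANNTG) were found in 6 members against 66.2% of all upstream sequences, TEAD sites (GGAATG) in 3 against 12.6%, and STAT5 sites (TTCNNNGAA) in 1 against 7.02%. The close copies are among the members with E-boxes too. The shares over all upstream sequences were not matched for base content, so no enrichment is read from them. A match is only a run of letters and does not show that a factor binds there.

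The members did not move as a block in the Hdac3-Isl1KO hearts. Of the 7 measured, 3 were higher past the threshold (Prl4a1, Prl3d3 and Prl7a1), 1 was lower (Prl8a2), and 3 did not pass (Prl5a1, Prl2a1 and Prl7d1). The threshold was an adjusted p under 0.05 with limma over all genes, which 0.428% of genes passed, 0.230% as higher and 0.198% as lower. Values are RMA expression on the log2 scale, where 1 unit is a doubling. A rise of at least 1 unit was seen in 3 of the 7 members and in 0.0496% of all genes. The median of the 7 differences was 0.83, against a median of 9.4e-05 over all genes. These counts follow from how the set was chosen, and nothing is read from them.

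encodes prolactin-like protein A, which trophoblast cells secrete and which binds natural killer cells of the uterus. It read 5.94, 5.94 and 5.95 in Hdac3-flox/flox and 7.87, 7.62 and 7.78 in Hdac3-Isl1KO. All 3 Hdac3-Isl1KO pools lay above all 3 controls, with a gap of 1.66 between the closest arrays, and the controls were nearly identical. The means were 5.94 ± 0.01 and 7.75 ± 0.13 (SD, n = 3 each), a difference of 1.81 or 3.51-fold (95% interval 3.06 to 4.01-fold). Among all 22180 genes this was the largest rise.

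encodes placental lactogen I gamma, a hormone of trophoblast giant cells. It read 5.71, 6.04 and 5.84 in Hdac3-flox/flox and 7.56, 7.20 and 7.16 in Hdac3-Isl1KO. The groups were separated by 1.12, and Hdac3-Isl1KO replicate 1 stood above the other pools of its group. The means were 5.86 ± 0.17 and 7.30 ± 0.22 (SD, n = 3 each), a difference of 1.44 (95% interval 1.12 to 1.77) or 2.72-fold, the rise that ranked second after Prl4a1. Its copies Prl3d1 and Prl3d2 are close relatives: their upstream sequences were 83% and 96.5% identical to that of Prl3d3 over the aligned columns. Whether the probes of the Prl3d3 row also read these copies is not known here, so its value is uncertain as to the gene.

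encodes prolactin-like protein E, a placental factor known to act on megakaryocyte precursors. It read 5.17, 5.22 and 5.18 in Hdac3-flox/flox and 6.53, 6.62 and 6.37 in Hdac3-Isl1KO. The groups were 1.15 apart, a wider gap than the range among the pools of either group (0.05 and 0.26). The means were 5.19 ± 0.03 and 6.51 ± 0.13 (SD, n = 3 each), a difference of 1.32 (95% interval 1.12 to 1.52) or 2.50-fold. Its neighbour and relative Prl7a2, for prolactin-like protein F, shared 76.8% of its upstream sequence and differed by 0.16 (95% interval -0.07 to 0.38). Prl7a2 was dim, with a mean of 3.32 over all arrays, below the 25th percentile row of the array (4.45), so its difference may be understated.

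Prl8a2, which encodes decidual prolactin-related protein, a product of the decidua, went the other way. It read 6.69, 6.91 and 6.55 in Hdac3-flox/flox and 5.87, 5.77 and 5.98 in Hdac3-Isl1KO. All Hdac3-Isl1KO pools lay below all controls, by at least 0.57. The means were 6.72 ± 0.18 and 5.87 ± 0.10 (SD, n = 3 each), a difference of -0.84 (95% interval -1.10 to -0.58), or 1.79-fold lower. Groups that did not overlap were common on these arrays: 9.41% of all genes were separated as higher and 12.4% as lower, and of the members 4 were separated as higher and 1 as lower.

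**Figure D1:**
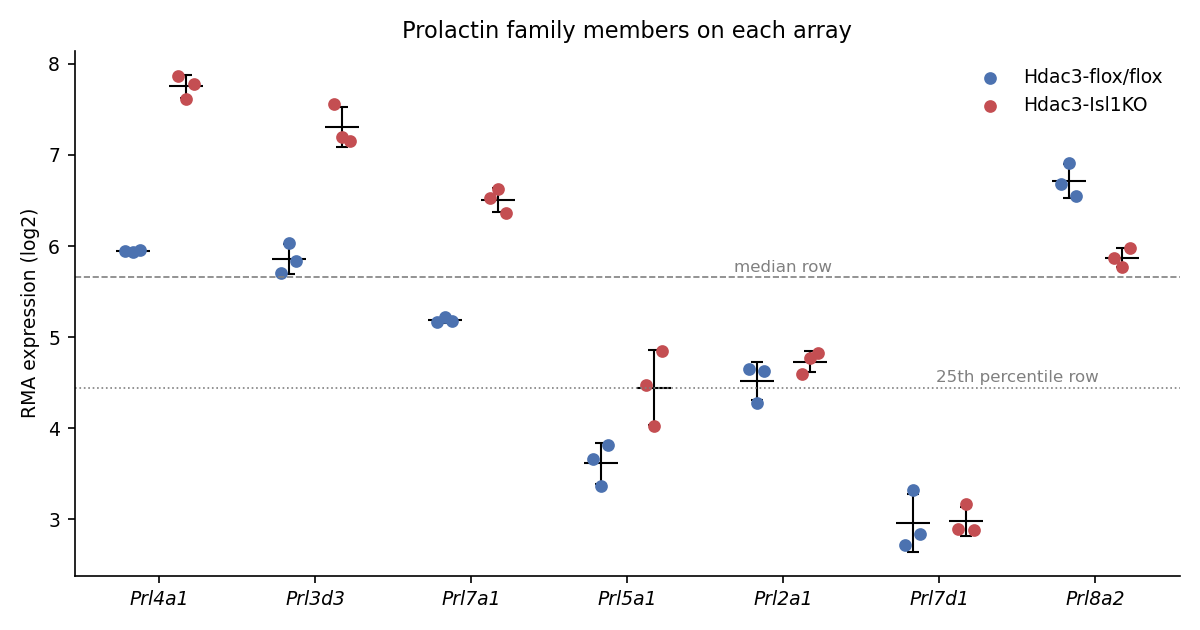
RMA expression (log2) of the 7 measured prolactin family members in each of the 6 heart pools, with Hdac3-flox/flox in blue and Hdac3-Isl1KO in red. Bars give the group mean ± SD (n = 3), and horizontal lines mark the median row (5.66) and the 25th percentile row (4.45) of the array. Prl4a1, Prl3d3 and Prl7a1 are higher and Prl8a2 lower in all 3 Hdac3-Isl1KO pools, while the groups overlap for Prl2a1 and Prl7d1.

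The other members were dim. Prl5a1, for prolactin-like protein L, read 3.66, 3.37 and 3.81 in Hdac3-flox/flox and 4.47, 4.02 and 4.85 in Hdac3-Isl1KO. Its groups did not overlap, with a gap of 0.21, but the Hdac3-Isl1KO pools were spread from 4.02 to 4.85, and the difference of 0.83 (95% interval 0.32 to 1.34) did not pass. Prl2a1, for prolactin-like protein M, lay at 4.52 ± 0.21 and 4.73 ± 0.12 (SD, n = 3 each) in Hdac3-flox/flox and Hdac3-Isl1KO, with overlapping groups and a difference of 0.22 (95% interval -0.07 to 0.50). Prl7d1 encodes proliferin-related protein, which restrains blood vessel growth. Its level was 2.96 ± 0.32 and 2.98 ± 0.16 (SD, n = 3 each), with a difference of 0.02 (95% interval -0.37 to 0.42). The mean of Prl5a1 over the 6 arrays, 4.03, and that of Prl7d1, 2.97, lay below the 25th percentile row of the array, 4.45, and that of Prl2a1, 4.62, below the median row, 5.66. Dim values cannot be separated from background here, so differences of these genes may be understated.

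Which array was highest differed from member to member. In Hdac3-Isl1KO, replicate 1 was highest for 2 members (Prl4a1 and Prl3d3), replicate 2 for 2 and replicate 3 for 3. In Hdac3-flox/flox, replicate 2 was highest for 4 of the 7, among them Prl8a2. Of the 4 called members, only Prl4a1 kept its call with each of the 6 arrays left out in turn, with differences from 1.75 to 1.88. Prl7a1 lost its call without Hdac3-flox/flox replicate 3 (1.32) and without Hdac3-Isl1KO replicate 1 (1.31), while its difference stayed between 1.26 and 1.39 over all 6. Prl3d3 kept its call only without Hdac3-flox/flox replicate 2 (1.53) and lost it without any of the other 5 arrays, over which its difference lay between 1.32 and 1.52. Prl8a2 lost its call without any 1 array, with differences between -0.92 and -0.74. No member that had been called changed direction. Calls over all 22180 genes also fell, from 95 to between 2 and 25 with 1 array left out. Only 2 genes in all were called without Hdac3-flox/flox replicate 3, and 2 without Hdac3-Isl1KO replicate 1. Lost calls are therefore not particular to these members.

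**Figure D2:**
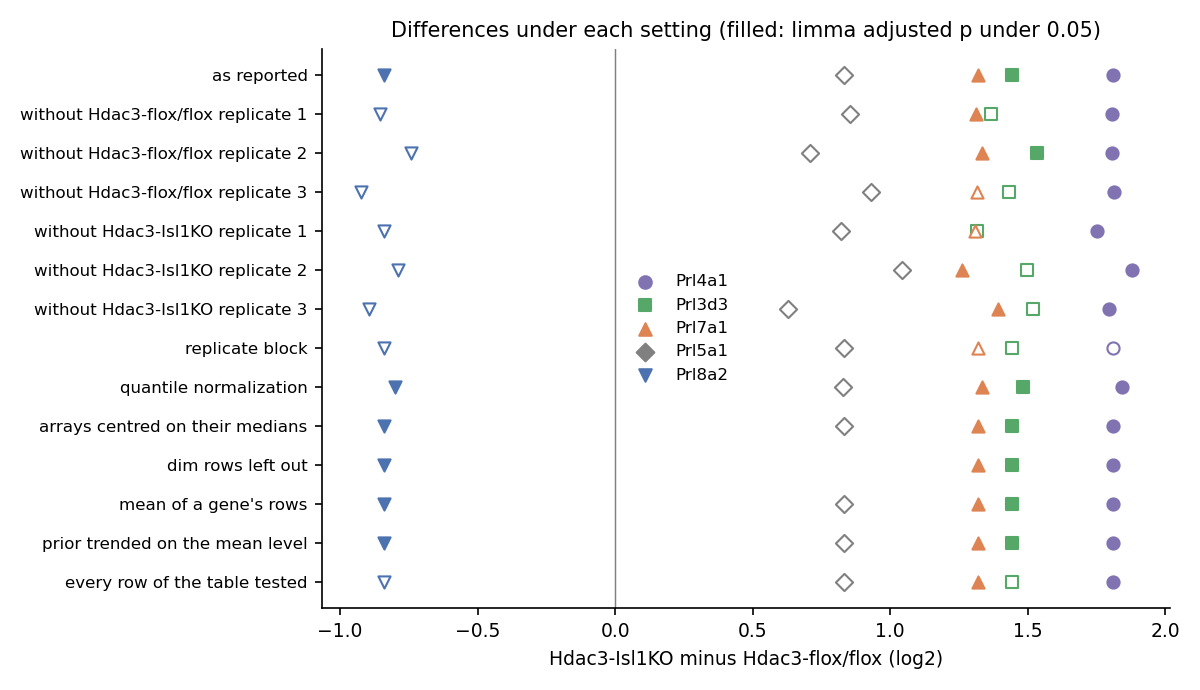
Differences between Hdac3-Isl1KO and Hdac3-flox/flox (log2, horizontal axis) for 5 members under each processing setting (rows), with filled symbols where the limma adjusted p was under 0.05. The differences hold their places from row to row, Prl4a1 from 1.75 to 1.88 and Prl8a2 from -0.92 to -0.74, while the fill of Prl3d3, Prl7a1 and Prl8a2 changes when arrays are left out. Prl5a1, drawn with open symbols throughout, was removed by the filter on dim rows.

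Of the listed family symbols outside the set, 14 of 17 were measured, and limma over all genes called 0 of them (1 reached an unadjusted p under 0.05). Their median difference was 0.09, and 13 of the 14 had means below the 25th percentile row. The one with an unadjusted p under 0.05 was Prl2c5, a proliferin gene, whose product promotes blood vessel growth. Prl2c5 read 3.46, 3.66 and 3.15 in Hdac3-flox/flox and 4.80, 4.59 and 4.28 in Hdac3-Isl1KO. Its groups were 0.61 apart. The difference of 1.13 (95% interval 0.72 to 1.54) missed the threshold (limma adjusted p = 0.0572) and passed under 1 of 12 alternatives, a prior on the variance trended on expression, with a range of limma adjusted p from 0.00587 to 0.222. Its upstream sequence, printed above, was 94.4% identical to that of Prl7d1, whose difference was 0.02 at a mean of 2.97, below the 25th percentile row. The array also has 2 rows that each list several proliferin (Prl2c) symbols and were not used in this comparison. They rose by 1.96 and 1.95 and are described under the results flagged for a closer look.

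The pituitary hormone gene Prl itself lay at 3.76 ± 0.38 and 3.57 ± 0.59 (SD, n = 3 each), with overlapping groups and a difference of -0.19 (95% interval -0.93 to 0.55). Prl3c1 and Prl6a1, for prolactin-like proteins J and B, which the decidua also makes, differed by 0.08 (95% interval -0.32 to 0.48) and 0.22 (-0.02 to 0.46). Both were dim, with means of 3.42 and 3.36, and no direction can be given for them beside Prl8a2. Among the spongiotrophoblast genes of the Prl8 subfamily, Prl8a6 differed by -0.08, Prl8a8 by 0.05 and Prl8a9 by 0.57 (95% interval -0.01 to 1.15), and their relative Prl8a1 by 0.30. The remaining genes of the family differed by 0.20 (Prl2b1), 0.09 (Prl2c1), -0.02 (Prl3a1), -0.11 (Prl7b1) and 0.01 (Prl7c1). Apart from Prl2c5, each of the 14 had a 95% interval that included 0, and these intervals reached up to 1.15 (Prl8a9).

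**Figure D3:**
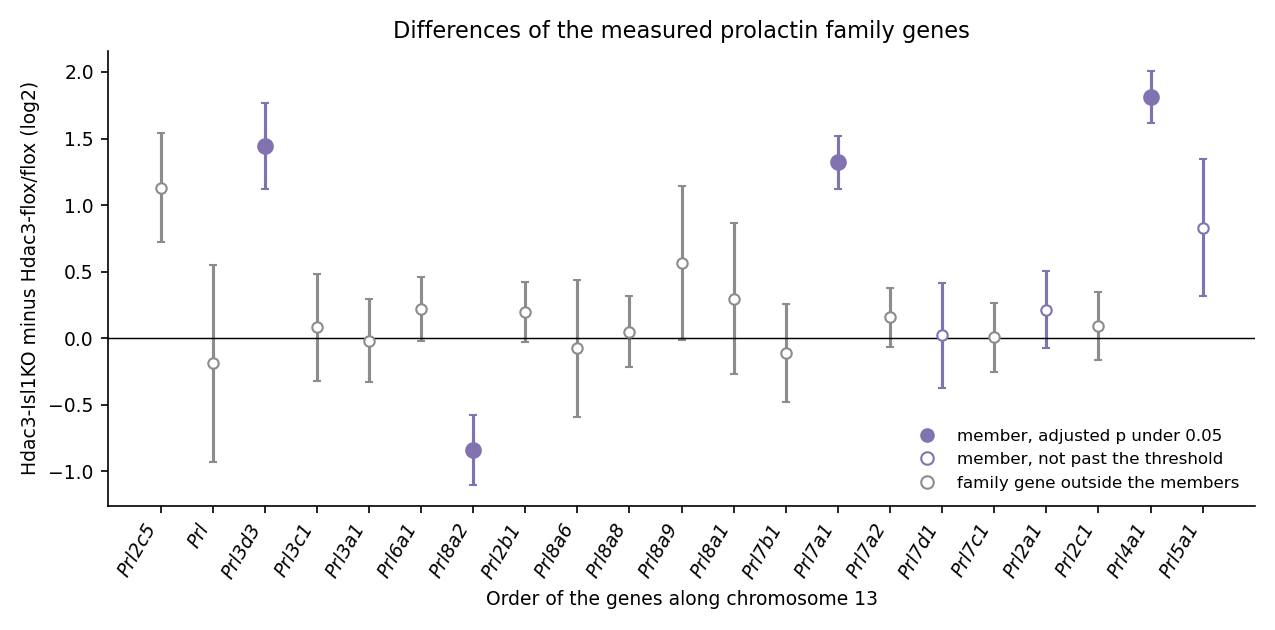
Differences between Hdac3-Isl1KO and Hdac3-flox/flox (log2, vertical axis, with 95% intervals) of the 21 measured prolactin family genes, in their order along chromosome 13. Members of the set are purple and other family genes grey, and filled points passed the limma threshold. The filled points lie apart from each other along the row, with Prl3d3, Prl7a1 and Prl4a1 above 0 and Prl8a2 below.

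The genes through which prolactin and the placental lactogens signal were not called. Of 11 listed genes of the prolactin receptor pathway 10 were measured, Prlr itself not being analysed here, and 0 passed with limma, with 1 at an unadjusted p under 0.05. Their median difference was -0.11, with 3 above and 7 below 0. The kinase gene Jak2 lay at 8.28 ± 0.03 and 8.13 ± 0.11 (SD, n = 3 each) in Hdac3-flox/flox and Hdac3-Isl1KO, a difference of -0.14 (95% interval -0.32 to 0.04). The transcription factor genes Stat5a, Stat5b and Stat3 differed by -0.15, -0.22 and -0.07, and the growth hormone receptor gene Ghr by -0.18. Among the feedback inhibitors that Stat5 is known to induce, Socs2 had the smallest p-value of the list (-0.39, 95% interval -0.74 to -0.05, limma adjusted p = 0.293). It read 7.03, 7.05 and 7.08 in Hdac3-flox/flox and 6.84, 6.83 and 6.31 in Hdac3-Isl1KO, so all 3 Hdac3-Isl1KO pools lay below the controls and replicate 3 was the lowest. Of the 10 genes 3 were separated as lower, where 12.4% of all genes were, and 0 as higher. Cish differed by -0.002 (95% interval -0.19 to 0.18), Socs1 by 0.23, Socs3 by 0.32 and the phosphatase gene Ptpn11 by 0.06. Dimmer rows of Socs2, Cish and Socs3 differed by -0.07, 0.12 and -0.03, so the values of these genes depend on the row.

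Genes most like the members over the 6 arrays were sought among 629 genes outside the family whose values ranged over at least 1 log2 unit. Likeness was the root mean square distance between profiles centred on their means. For Prl4a1, Prl3d3 and Prl7a1 the nearest 5 genes were the same: Cyp11a1, Star, Tdo2, Psg29 and A2m. All 5 rose by at least 1 log2 unit, as did only 11 of all 22180 genes, family genes included. Few others could stand near, so the shared neighbours show little beyond the size of the rise. Star brings cholesterol into mitochondria and Cyp11a1 cleaves it to begin the making of steroid hormones, Tdo2 breaks down tryptophan, Psg29 is a pregnancy-specific glycoprotein and A2m a protease inhibitor. The closest pair was Prl7a1 and Cyp11a1, at a distance of 0.05, nearer than Prl7a1 to Prl3d3 (0.17). A dimmer row of Cyp11a1 differed by -0.10. Prl8a2 had other neighbours. After 3 symbols of the classes left out of the ranking (predicted genes, small RNAs, and olfactory and vomeronasal receptors) the nearest were Hpgd, which breaks down prostaglandins (0.06), the matrix proteoglycan gene Dcn (0.06), the retinaldehyde dehydrogenase gene Aldh1a1 (0.08), the transcription factor gene Bcl11a (0.10) and the peptidase gene Dpp4 (0.11). These distances use the contrast that chose the members and are a description over 6 arrays.

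Other placental genes were measured beside the members. Of 60 measured trophoblast genes outside the prolactin family 3 rose, 0 fell (limma, adjusted p under 0.05), and 14 had an unadjusted p under 0.05, where 14.5% of all genes did. The 3 were Cyp11a1 (1.35, 95% interval 1.13 to 1.57, limma adjusted p = 0.00895), Star (1.22, 0.998 to 1.45, limma adjusted p = 0.00895) and Psg29 (1.22, 0.88 to 1.55, limma adjusted p = 0.0300). All 3 were already known to have risen when the lists were written, so they are not independent evidence. Cyp11a1 lost its call without Hdac3-flox/flox replicate 1 (1.31), Hdac3-flox/flox replicate 3 (1.32) or Hdac3-Isl1KO replicate 1 (1.32). Star lost it without Hdac3-flox/flox replicate 3 (1.15) or any of Hdac3-Isl1KO replicates 1, 2 and 3 (1.20, 1.26 and 1.21). Psg29 kept it only without Hdac3-flox/flox replicate 2 (1.36) and lay between 1.08 and 1.25 without any of the other 5 arrays. Of 7 steroid synthesis genes 2 passed, the list's median was 0.63, and its mean level per array was 6.49 to 6.52 in Hdac3-flox/flox and 7.02 to 7.18 in Hdac3-Isl1KO. Cyp17a1 (1.07, 95% interval 0.67 to 1.48, limma adjusted p = 0.0617) and Hsd3b6 (0.63, 0.37 to 0.88, limma adjusted p = 0.0736) missed the threshold with groups that did not overlap. In all, 5 of the 7 were above 0 and 2 below, namely Hsd3b1 (-0.34, limma adjusted p = 0.406) and the electron carrier gene Fdx1 (-0.07, limma adjusted p = 0.760), both with overlapping groups. Of 13 pregnancy-specific glycoprotein genes Psg29 alone passed, next by p-value came Psg22 (0.54) and Psg26 (-0.43), and the median was 0.01, with mean levels per array of 3.71 to 3.97 and 3.85 to 3.98. Of these 13 genes 10 had means below the 25th percentile row, so a change in them could be missed.

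Genes listed as markers of trophoblast cell types were not called. The giant cell list (11 genes, among them Hand1 and the placental cathepsins) had 0 calls with limma, a median difference of 0.02 and mean levels per array of 4.56 to 4.85 in Hdac3-flox/flox and 4.74 to 4.79 in Hdac3-Isl1KO. In that list 7 genes had means below the 25th percentile row, so a change in them could be missed. Hand1, which is also a heart gene, differed by 0.16 and Cts3 by 0.34 (limma adjusted p = 0.379 and 0.205). In the spongiotrophoblast list (7 genes, 0 calls, median -0.005) Tpbpa lay at 4.31 ± 0.46 and 4.41 ± 0.15 (SD, n = 3 each), below the 25th percentile row, while Phlda2 differed by 0.39 and Ncam1 by -0.32 (limma adjusted p = 0.305 and 0.308), and the mean level per array was 5.39 to 5.73 and 5.5 to 5.66. The labyrinth and syncytiotrophoblast list (8 genes, 0 calls, median -0.02) and the list of general trophoblast genes (14 genes, 0 calls, median 0.13) did not pass either, although 13 of the latter 14 were above 0, with Peg10 at 0.40 (limma adjusted p = 0.0978) and Rhox6 at 0.46 (limma adjusted p = 0.233). The mean level per array of the labyrinth list was 7.03 to 7.10 and 7.05 to 7.18, and that of the general list 5.60 to 5.71 and 5.74 to 5.88, in Hdac3-flox/flox and Hdac3-Isl1KO. At an unadjusted p under 0.05 the counts of these 4 lists were 1, 2, 0 and 2. Some listed genes were bright in both groups, up to a mean of 10.2 for Slc16a1 in the labyrinth list. Whether these lists can report trophoblast RNA in these hearts was not tested. The part of trophoblast RNA in the members' values was not tested. In pooled tissue, a change in the number of cells of a type and a change in RNA per cell cannot be told apart.

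**Figure D4:**
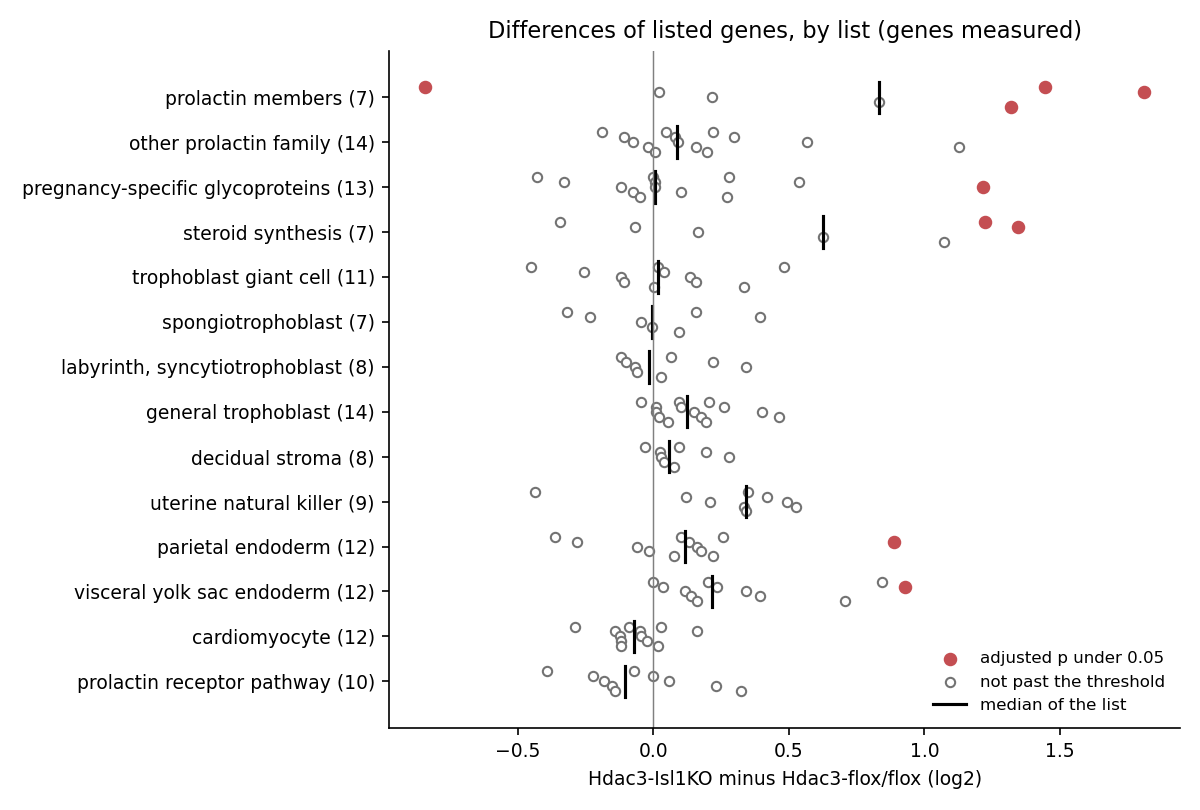
Differences between Hdac3-Isl1KO and Hdac3-flox/flox (log2, horizontal axis) of the genes of each list, 1 point per gene and the number measured in brackets; black bars are list medians and red points passed the limma threshold. The prolactin members (median 0.83) and steroid synthesis genes (0.63) reach furthest to the right, while the giant cell, spongiotrophoblast and labyrinth lists centre near 0.

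Lists of neighbouring maternal and extraembryonic tissues were read in the same fit. Of 8 decidual stroma genes 0 were called by limma and 0 reached an unadjusted p under 0.05. Their median difference was 0.06, where Prl8a2 differed by -0.84, and their mean level per array was 6.24 to 6.34 in Hdac3-flox/flox and 6.29 to 6.46 in Hdac3-Isl1KO. The means of these 8 genes ran from 4.67 (Pgr) to 11.3 (Cryab), with 4 below the median row. Whether the list can report decidual RNA in these hearts was not tested. The progesterone receptor gene Pgr lay at 4.65 ± 0.08 and 4.68 ± 0.02 (SD, n = 3 each). Of 9 uterine natural killer cell genes 0 were called by limma, and 5 reached an unadjusted p under 0.05. The groups were separated as higher for 4 of the 9, where 9.41% of all genes were, and as lower for 1, where 12.4% were. The lower one was Klrb1c, among the 5 (-0.44, limma adjusted p = 0.334), with a mean of 4.03, below the 25th percentile row. Of the 9 genes, 7 had means below the median row. The median of that list was 0.34 with 8 of 9 above 0, its mean level per array was 4.74 to 4.96 and 5.0 to 5.19, and the perforin gene Prf1 differed by 0.34 (95% interval 0.07 to 0.61, limma adjusted p = 0.252). In the parietal endoderm list 1 of 12 rose, the laminin gene Lama1 (0.89, 95% interval 0.71 to 1.06, limma adjusted p = 0.0107), with a list median of 0.12 and mean levels of 7.94 to 8.01 and 8.04 to 8.09. Of that list 5 genes reached an unadjusted p under 0.05, and 8 were above and 4 below 0. The groups were separated as higher for 5 of the 12, where 9.41% of all genes were. They were separated as lower for 2, where 12.4% of all genes were, namely Cited1 (-0.36, limma adjusted p = 0.180) and Plat (-0.28, limma adjusted p = 0.276). In the visceral yolk sac endoderm list 1 of 12 rose, the fibrinogen gene Fgb (0.93, 0.71 to 1.15, limma adjusted p = 0.0204), with a median of 0.22, 11 of 12 above 0 and 4 at an unadjusted p under 0.05, and Afp (0.84) missed the threshold (limma adjusted p = 0.0515). The groups were separated as higher for 6 of these 12 and as lower for 0, where 9.41% and 12.4% of all genes were. Over all genes, 14.5% reached an unadjusted p under 0.05. The mean level per array of the visceral yolk sac list was 5.37 to 5.54 in Hdac3-flox/flox and 5.76 to 5.83 in Hdac3-Isl1KO. Lama1 kept its call only without Hdac3-flox/flox replicate 2 (0.91) and Fgb lost it without any 1 array, with differences of 0.84 to 0.91 for Lama1 and 0.86 to 0.99 for Fgb. These tissues adjoin the embryo at this age, and their part in the members' values was not tested.

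The labelled tissue and genotype were read from the same arrays. All 12 cardiomyocyte genes were above the median row, with means from 9.48 for Nkx2-5 to 13.4 for Actc1, and 0 passed with limma (2 at an unadjusted p under 0.05, median difference -0.07). Of the 12, 9 were below 0, and 8 had all Hdac3-Isl1KO arrays below all controls, where 12.4% of all genes did. Their mean level per array was 11.55 to 11.57 in Hdac3-flox/flox and 11.46 to 11.50 in Hdac3-Isl1KO, without overlap, beside the rise of Prl4a1, Prl3d3 and Prl7a1. The ventricular myosin light chain gene Myl2 differed by -0.29 and the atrial Myl7 by 0.16 (limma adjusted p = 0.150 and 0.305). The part of this shift in the members' values was not tested. Hdac3 was 9.68 ± 0.05 in Hdac3-flox/flox and 9.21 ± 0.10 in Hdac3-Isl1KO (SD, n = 3 each), a difference of -0.47 that missed the threshold (limma adjusted p = 0.0636). Array medians lay between 5.64 and 5.71 and correlations between arrays over all rows between 0.980 and 0.989. With 3 arrays a group, precision is limited.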

How the data were processed

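Gene expression in pooled mouse embryonic hearts was measured on Affymetrix arrays, 3 per group. Per the labels' protocols, biotinylated cDNA was made with the GeneChip WT PLUS kit. The authors deposited log2 values, and the submitters' processing notes name oligo and RMA (background correction, quantile normalization and summary of probe sets). Tool versions and the genome build: not given in the sources used here. RMA compresses differences of dim rows.

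Of 41345 rows, 23521 list 1 gene symbol in the platform annotation, 1814 list several and 16010 none. A gene with more than 1 row was represented by its brightest, which left 22180 genes; each measured member had 1 row. Positive differences mean higher in Hdac3-Isl1KO. They were fitted over all genes with lmFit and eBayes of limma 3.58.1 (R 4.3.3, two-sided, Benjamini-Hochberg, threshold 0.05) without a filter. The steps were tested on simulated data. Upstream sequences came from RefSeq (GRCm38.p6) and were aligned with Biopython. Alternatives left out arrays or dim rows, or changed the normalization, variance prior, choice of row or block.

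The members and gene lists were chosen with earlier results of these data known. Named genes were all measured family and receptor pathway genes, up to 3 genes per marker list with the smallest p-values, the 5 nearest in pattern to 4 members, and Hdac3. Tpbpa, Pgr, Hsd3b6, Hsd3b1, Fdx1, Plat, Klrb1c, Nkx2-5, Actc1 and Cryab were added after their values were seen. The ranking by pattern left out predicted genes, small RNAs, and olfactory and vomeronasal receptors.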

Additional observations from a re-analysis of the deposited data

Results flagged for a closer look

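A signal was found in array rows that the comparison did not use. The array has 2 rows that each list 4 gene symbols, all of the proliferin (Prl2c) subfamily, and no gene is named from them. The first read 6.97, 7.25 and 6.98 in Hdac3-flox/flox and 9.10, 8.98 and 9.02 in Hdac3-Isl1KO, a difference of 1.96 (95% interval 1.71 to 2.21) or 3.90-fold. The second read 6.97, 7.17 and 6.96 against 9.13, 8.90 and 8.92, a difference of 1.95 (95% interval 1.70 to 2.20) or 3.86-fold. All Hdac3-Isl1KO pools lay above all Hdac3-flox/flox pools by at least 1.72 in both rows. In a fit over every row, added after these values were seen, both had a limma adjusted p of 0.00894, where 31 of 41345 rows (0.075%) passed. The 2 rows list the same symbols and are not independent of each other. Both differences exceeded that of Prl4a1 (1.81), the largest among genes with a row of their own.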

How the results depend on the processing

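No single member's difference changed sign where it had been called, and none moved beyond 1 SD between replicates under 13 alternatives (12 for the dim members). Counts did change. Of all genes, 95 were called, against 149 with quantile normalization, 617 with dim rows left out, 866 with a prior on the variance trended on expression, 31 with every row of the table tested (an alternative added after the data were seen) and 2 to 25 with 1 array left out. Members called higher were 3, and 1 to 3 with 1 array left out. Members called lower were 1, and 0 with any 1 array left out and with every row tested, where Prl3d3 also missed the threshold. Family genes outside the set called were 0, and 1 with the trended prior. Other trophoblast genes called were 3, against 5 with quantile normalization, 6 with dim rows left out, 6 with the trended prior and 0 to 3 with 1 array left out. The members' median difference was 0.83, between 0.63 and 1.04 with 1 array left out, and 1.38 with dim rows left out, which removes 3 of the 7. With the replicate number as a block, limma called 0 of all genes (2744 at an unadjusted p under 0.05), 0 members higher, 0 members lower (5 members at an unadjusted p under 0.05) and 0 other trophoblast genes (10 at an unadjusted p under 0.05); same-numbered arrays did not deviate together (correlations of -0.01, -0.09 and 0.04) and share only a number. The cause of these changes was not tested. The dimness of 15 of 21 family genes, with means below the 25th percentile row, limits what can be seen of them.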
